A study of Rattus norvegicus with 4 samples.

Results

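The genes described here are 7 genes by which dendritic cells and Langerhans cells are recognised, out of 23999 genes in the deposited matrices: Cd207, Flt3, Xcr1, Clec9a, Zbtb46, Ccr7 and Fscn1. They were found by their symbols, each of which matched 1 row. They were followed across 4 single-cell RNA-seq libraries of rat skin wounds taken on day 4. In the injected group (2 libraries), purified migrasomes, which are vesicles left behind by migrating cells, were injected in the wound model. In the uninjected group (2 libraries) nothing was injected, so the act of injection and the migrasomes cannot be told apart. Both groups were wounded. The sources used here give no strain, age, sex or migrasome dose. They also do not say whether the libraries of a group came from separate animals, so every p-value is set against library-to-library spread that may be technical.

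Dendritic cells take up antigen in tissues and carry it to lymph nodes, where they present it to T cells. Langerhans cells are the antigen-presenting cells of the epidermis, and langerin, the product of Cd207, is the lectin that defines them. Flt3 is the receptor for the growth factor that drives dendritic cell development. Zbtb46 is a transcription factor of conventional, and not plasmacytoid, dendritic cells in mouse. Clec9a, a receptor for dead cells, and Xcr1, the receptor for the chemokine Xcl1, mark the cross-presenting conventional type 1 cells in mouse. On maturation, dendritic cells switch on Ccr7, which guides them to lymph nodes along Ccl19 and Ccl21, and Fscn1, an actin-bundling protein of their processes.

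The kept cells numbered 9862 and 6116 in the injected libraries and 9085 and 8727 in the uninjected libraries, with total unique molecular identifiers (UMIs) per library between 75823418 and 105605297. Library pairs shared 13 to 29 cell barcodes. Uninjected library 1 stood apart. Ribosomal protein genes took 17.03% of its UMIs, against 7.15% to 8.60% in the others, and its median cell held 1997 UMIs, against 3414 to 7807.5 in the others. Cells were clustered without the 7 genes and named from marker lists that hold none of them. Of the 1270 dendritic-like cells, 358 and 306 came from the injected libraries, against 142 and 464 from the uninjected libraries. Reclustering gave 98 Langerhans-like cells, led by Tjp1 and Mfge8 and with Ltc4s among their top 10 genes, and 181 mature dendritic-like cells, led by Cacnb3. It also gave 965 other dendritic-like cells in 3 conventional subsets and 26 cells led by neutrophil genes such as G0s2, which were kept in the dendritic-like class. Conventional subset 1 (495 cells) was led by Flt1 and Clec10a, subset 2 (392 cells) by Layn, and subset 3 (78 cells) by Hes1 and Myc. Lamp3, a marker often used for mature dendritic cells, had 0 UMIs in the mature dendritic-like cells. Cluster 14 (811 cells) stayed unnamed. It held all 6 plasmacytoid markers, with a UMI of Siglech in 55.1% and of Tcf4 in 89.8% of its cells. Its top 10 genes, led by Blnk, included none of those markers but did include Irf8, a marker of the conventional dendritic list, so the naming rule gave it no name. A level is given as CPM, the gene's UMIs in a class and library scaled to the same total in every class and library.

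The 7 genes were spread over the skin very differently. Langerhans-like cells held 79.6% of all Cd207 UMIs, although they were 98 of the kept cells. All dendritic-like cells together held 94.8% of the UMIs of Cd207, 84.7% of those of Ccr7 and 69.2% of those of Clec9a. They held 33.9% of the UMIs of Zbtb46, 12.9% of those of Flt3, 7.18% of those of Fscn1 and 6.78% of those of Xcr1. Most UMIs of Flt3 (71.9%) were in cluster 14, although in uninjected library 1 that share was 34.1%, below the 36.99% in keratinocyte-like cells. Most UMIs of Fscn1 (74.95%) were in keratinocyte-like cells, and most of Xcr1 (85.3%) in neutrophil-like cells. None of the 7 was detected in most dendritic-like cells. The shares with a UMI over all 1270 cells were 41.9% for Ccr7, 30.2% for Zbtb46, 25.98% for Clec9a, 20.7% for Flt3, 15.5% for Cd207, 14.9% for Fscn1 and 0.87% for Xcr1. Dendritic-like cells with none of the 7 made up 22.1% and 22.9% in the injected libraries and 20.4% and 13.8% in the uninjected libraries.

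**Figure D1:**
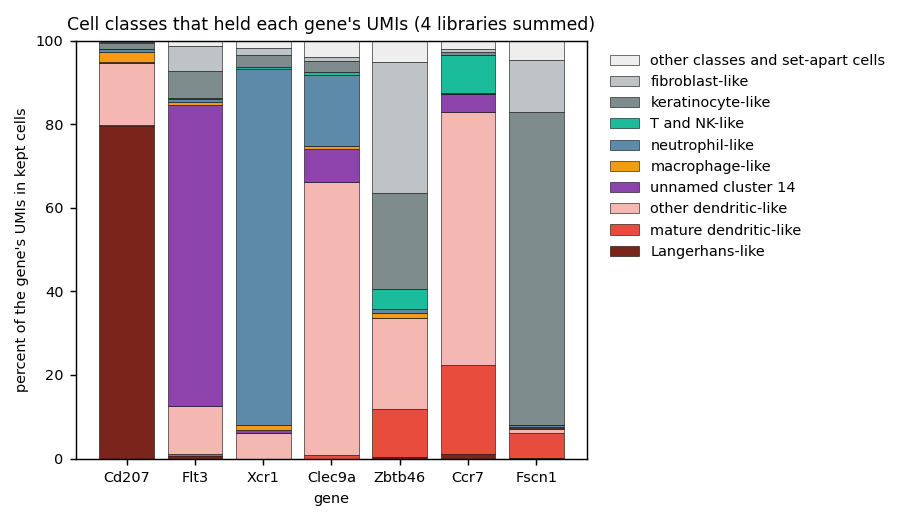
Each bar splits the UMIs of 1 gene, summed over the 4 libraries, by the class of the cell that held them (percent of the gene's UMIs in kept cells). Cd207 lay mostly in Langerhans-like cells (79.6%), Ccr7 and Clec9a in dendritic-like cells, Flt3 in cluster 14, Xcr1 in neutrophil-like cells and Fscn1 in keratinocyte-like cells.

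**Figure D2:**
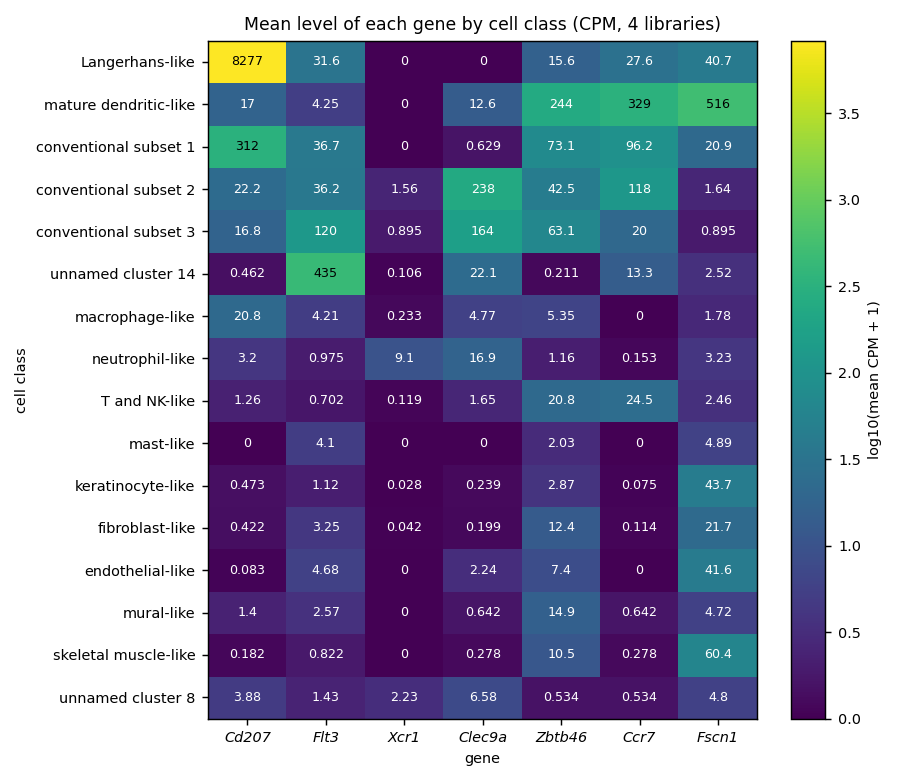
Mean CPM over the 4 libraries of each gene (columns) in each cell class (rows), printed in the cells and coloured as log10(mean CPM + 1). Cd207 peaked in Langerhans-like cells, Flt3 in cluster 14, Clec9a in conventional subsets 2 and 3, and Zbtb46, Ccr7 and Fscn1 in mature dendritic-like cells.

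Cd207 separated the Langerhans-like cells from every other class. Its level there was 9159 and 10797 CPM in the injected libraries, against 5996 and 7156 CPM in the uninjected libraries. A UMI was found in 13 of 13 and 21 of 22 Langerhans-like cells of the injected libraries, and in 37 of 38 and 24 of 25 of the uninjected libraries. The median Langerhans-like cell held 62 and 74 Cd207 UMIs in the injected libraries, against 20 and 41 in the uninjected libraries. The median total of these cells was 6976 and 8151 UMIs in the injected libraries, against 3537.5 and 7738 in the uninjected libraries. Conventional subset 1 came next, at 191 and 261 CPM in the injected libraries, against 546 and 251 CPM in the uninjected libraries, and its range did not overlap that of the Langerhans-like cells. In that subset a few cells held much of the signal, most so in uninjected library 1. The 2 highest cells had 103 and 28 of 228 UMIs and 87 and 37 of 249 UMIs in the injected libraries, against 69 and 39 of 144 and 43 and 43 of 307 in the uninjected libraries. The median detecting cell had 2.5 to 4 UMIs across the 4 libraries. In keratinocyte-like cells, which should lack the gene, 0.29% and 0.60% of cells had a UMI in the injected libraries, against 0.92% and 0.73% in the uninjected libraries. Free RNA, as measured in empty droplets, could supply between 79.2% and 100% of those keratinocyte-like UMIs, against 0% to the printed decimal in Langerhans-like cells.

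The start-site regions of Cd207, most of whose UMIs lay in 1 small set of dendritic-like cells, and of Fscn1, most of whose UMIs lay outside the dendritic-like cells, are shown side by side as that contrast. They are the 250 bases before the annotated start in RefSeq (build GRCr8), 5′ to 3′ on the gene's own strand. Cd207 lies on the minus strand at chr4:117719192-117719441 and Fscn1 on the minus strand at chr12:16723735-16723984. Capitals mark matches, on either strand, to 4 motifs: the PU.1 core GAGGAA, the AP-1 motif TGANTCA, the CRE motif TGACGTCA and the TATA motif TATAAA.
Cd207: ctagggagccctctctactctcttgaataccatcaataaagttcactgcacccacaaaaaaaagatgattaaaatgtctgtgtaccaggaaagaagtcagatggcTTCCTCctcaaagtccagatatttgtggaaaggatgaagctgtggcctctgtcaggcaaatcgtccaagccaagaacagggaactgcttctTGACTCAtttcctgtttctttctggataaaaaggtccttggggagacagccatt
Fscn1: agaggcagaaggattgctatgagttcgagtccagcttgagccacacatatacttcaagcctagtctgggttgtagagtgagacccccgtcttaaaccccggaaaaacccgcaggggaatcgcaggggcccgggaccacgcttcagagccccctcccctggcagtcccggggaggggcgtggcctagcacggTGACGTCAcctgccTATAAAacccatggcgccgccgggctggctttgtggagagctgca
The Cd207 window held a PU.1 core (read as TTCCTC) 145 bases and an AP-1 motif (TGACTCA) 54 bases before the start, whereas the Fscn1 window held a CRE motif 59 bases and a TATA motif 45 bases before it. Of all 33469 such windows, 23.3% held the PU.1 core, 6.34% the AP-1 motif, 1.59% the CRE motif and 12.9% the TATA motif. No motif overlapped another in these windows. The Xcr1 window, not printed, also held a PU.1 core 56 bases and an AP-1 motif 17 bases before the start, and most Xcr1 UMIs lay in neutrophil-like cells. The Zbtb46 window held a PU.1 core 15 bases and a TATA motif 38 bases before it. A match is only a run of letters, and nothing in these libraries measured binding. Of the 7 genes, 6 had an entry in the table, and Ccr7 was the one without.

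Between the groups, Cd207 pointed opposite ways depending on how the cells were pooled. Within Langerhans-like cells both injected libraries lay above both uninjected libraries, with a log2 change of 0.54 (SE 0.33, adjusted p = 0.896, edgeR quasi-likelihood test). These cells numbered only 13 and 22 in the injected libraries, against 38 and 25 in the uninjected libraries, so this fit used a lower minimum of 10 cells per library, chosen after the data were seen. Of the 3097 genes tested there, 20% likewise lay higher in both injected libraries. The direction was not stable, since the log2 change was -0.087 with doublets kept and -0.067 with cells classed one by one by their marker scores. Classing cells one by one was coarser, with 6607 dendritic-like cells in place of 1270, so it did not compare the same set of cells. Over all dendritic-like cells the level was 378 and 911 CPM in the injected libraries, against 1518 and 384 CPM in the uninjected libraries. The groups overlapped there, and the log2 change was -0.75 (SE 0.74, adjusted p = 0.889). Uninjected library 1 decided the sign, since without it the log2 change was 0.70. In that library Langerhans-like cells made up 26.8% of the dendritic-like cells, against 3.63% and 7.19% in the injected libraries and 5.39% in uninjected library 2, and the part of this share in the Cd207 level was not tested. In bulk over all kept cells, where fewer cells of a type and less RNA per cell cannot be told apart, Cd207 had 13.2 and 36.6 CPM in the injected libraries and 19.8 and 21.6 CPM in the uninjected libraries.

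**Figure D3:**
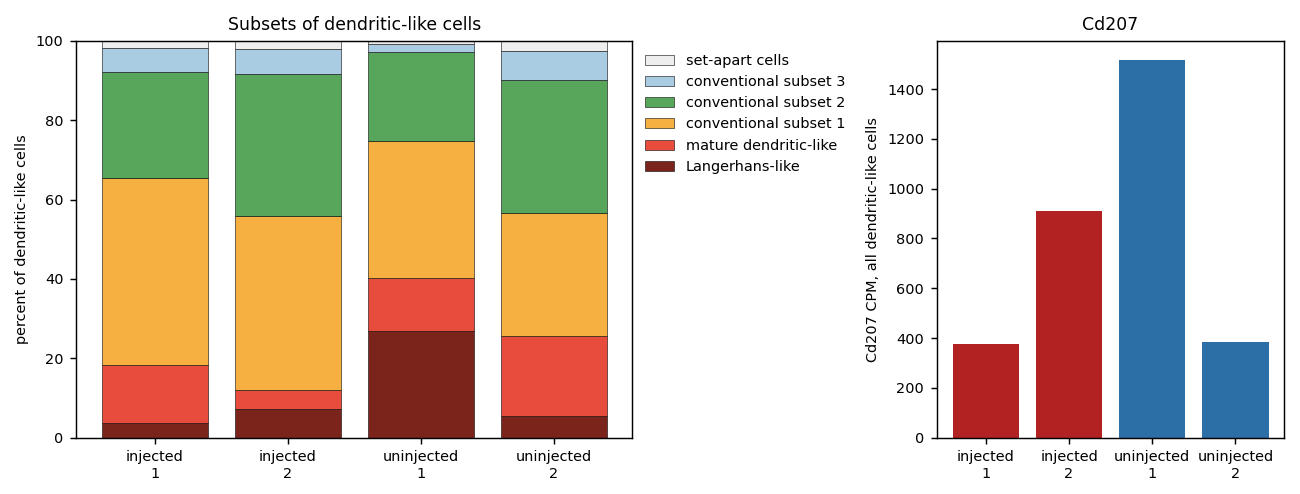
Left, percent of the dendritic-like cells of each library in each subset. Right, CPM of Cd207 summed over all dendritic-like cells of the same library. Uninjected library 1 had both the largest Langerhans-like share (26.8%) and the highest Cd207 level (1518 CPM).

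Outside the dendritic-like cells, the lowest unadjusted p of any of the 7 genes belonged to Cd207 in macrophage-like cells, and it rested on a pair of cells. The level was 3.69 and 0.44 CPM in the injected libraries, against 5.37 and 73.9 CPM in the uninjected libraries. All 149 UMIs of uninjected library 2 lay in 2 of its 415 macrophage-like cells, 1 with 138 and 1 with 11. The cell with 138 Cd207 UMIs had UMIs of 8 of 12 macrophage markers and of 5 of 10 Langerhans markers, and the other had 9 of 12 and 9 of 10. By UMIs the first held 368 of the Langerhans markers, 106 of the macrophage markers and 626 of the conventional dendritic markers, and the second 167, 32 and 233. The Langerhans and conventional dendritic lists share RT1-Ba, RT1-Bb and Cd74, so UMIs of these genes counted in both sums. Other macrophage-like cells were not compared, so the sums do not name these cells. The log2 change of -4.28 (SE 0.79, unadjusted p = 0.00016) did not pass after adjustment (adjusted p = 0.158, edgeR), and without these 2 cells the library had 0 CPM. Of the genes tested in macrophage-like cells, 5.33% had an unadjusted p under 0.05 and 0.0115% passed after adjustment. In neutrophil-like cells Cd207 was at 0.38 and 2.29 CPM in the injected libraries, against 7.60 and 2.54 CPM in the uninjected libraries (log2 change -2.23, SE 0.89, unadjusted p = 0.045, adjusted p = 0.553, edgeR), and 8.95% of the genes tested there had an unadjusted p under 0.05. Free RNA could supply at most 54.3% to 100% of those UMIs, depending on the library.

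Flt3, the receptor for the dendritic cell growth factor, was highest in cluster 14. Its level there was 502 and 539 CPM in the injected libraries, against 248 and 450 CPM in the uninjected libraries. A UMI was found in 67.4% and 80.4% of cluster 14 cells of the injected libraries, against 42.9% and 63.8% in the uninjected libraries. Both injected libraries were higher, as were 29.2% of the genes tested in that cluster, and the log2 change was 0.42 (SE 0.31, adjusted p = 0.903, edgeR). Conventional subset 3 followed with 180 and 139 CPM in the injected libraries, against 57.8 and 104 CPM in the uninjected libraries, of which uninjected library 1 held only 3 such cells. Conventional subsets 1 and 2 and the Langerhans-like cells lay lower and overlapped each other. Mature dendritic-like cells, at 0 to 14.3 CPM, lay below subset 1 and the Langerhans-like cells. In subset 2 Flt3 had 50.4 and 46.2 CPM in the injected libraries, against 12.3 and 35.8 CPM in the uninjected libraries, and in subset 1 it had 33.6 and 24.1 CPM in the injected libraries, against 49.3 and 40.0 CPM in the uninjected libraries. In subset 1 both injected libraries were lower, as were 14.5% of the genes tested there, and in subset 2 both were higher, as were 32.3%, with log2 changes of 0.57 (SE 0.41) in subset 2 and -0.70 (SE 0.40) in subset 1. The difference of 1.14 (SE 0.53) between these changes had an unadjusted p of 0.048 and an adjusted p of 0.829 (edgeR interaction of subset and group). Cluster 14 against subset 1 gave a difference of 1.01 (SE 0.43, adjusted p = 0.689, edgeR). Mature dendritic-like cells had 1 and 0 Flt3 UMIs in the injected libraries and 0 and 10 in the uninjected libraries.

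Clec9a, the dead-cell receptor of type 1 cells, marked conventional subset 2. The level was 260 and 241.9 CPM in the injected libraries, against 241.7 and 208 CPM in the uninjected libraries. Cells with a UMI made up 66.7% and 67.0% in the injected libraries and 59.4% and 71.6% in the uninjected libraries. The CPM of the groups did not overlap by a narrow margin, but after TMM scaling the log2 change was -0.08 (SE 0.30, adjusted p = 0.999, edgeR), so no direction can be given. Subset 2 also had UMIs of Naaa in 64.3%, Irf8 in 57.1% and Cadm1 in 50.3% of its cells, all genes of the type 1 programme, against 9.09%, 20.6% and 14.8% in subset 1. Batf3, the transcription factor of that lineage in mouse, was detected in only 6.12% of subset 2. Itgae, also of the type 1 list, did not separate the subsets. It had 30.9 and 25.8 CPM in the injected and 28.7 and 45.3 CPM in the uninjected libraries in subset 2. In subset 1 it had 32.7 and 24.1 CPM in the injected and 45.5 and 33.5 CPM in the uninjected libraries. Of the type 2 list, subset 2 had Itgam at 231 and 210 CPM in the injected and 262 and 277 CPM in the uninjected libraries. Clec10a, of the same list, had 42.4 and 172 CPM in the injected and 32.8 and 31.6 CPM in the uninjected libraries there. In subset 1 Clec10a had 787 and 713 CPM in the injected and 186 and 504 CPM in the uninjected libraries. The lists therefore do not name subset 2. The shares of cells were not matched for depth, with medians of 10565 UMIs in subset 2 and 7316 in subset 1. Subset 3 had 240 and 272 CPM of Clec9a in the injected libraries, against 0 and 143 CPM in the uninjected libraries, and overlapped subset 2. Langerhans-like cells had 0 Clec9a UMIs in all 98 cells, which in uninjected library 1, with 38 cells, allows a UMI in up to 7.89% of cells, a limit on detection and not on expression. Cluster 14 held 7.90% of all Clec9a UMIs, at 24.5 and 15.6 CPM in the injected libraries and 16.8 and 31.7 CPM in the uninjected libraries. A UMI was found in 8.75% of its cells, against 2.08% of neutrophil-like cells. Neutrophil-like cells held 17.1% of all Clec9a UMIs, at 11.2 and 11.5 CPM in the injected libraries and 39.3 and 5.49 CPM in the uninjected libraries. Uninjected library 1 alone was high there: 67.4% of its Clec9a UMIs were in neutrophil-like cells, and its level exceeded those of the other 3 libraries in each of the 4 neutrophil-like clusters. Free RNA could supply at most 7.2% of the neutrophil-like Clec9a UMIs of any library.

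Xcr1, the other type 1 marker, was counted mostly in neutrophil-like cells, but within dendritic-like cells it lay with Clec9a. Only 177 UMIs of it were counted in all, of which 12 were in dendritic-like cells, 10 of them in conventional subset 2 and 0 in subset 1, Langerhans-like and mature cells. The dendritic-like cells of the injected libraries had 1 and 2 UMIs, against 0 and 9 in the uninjected libraries. In uninjected library 1 a count of 0 in 142 cells allows a UMI in up to 2.11% of cells, again a limit on detection only. Of the 11 dendritic-like cells with Xcr1, 9 also had Clec9a (81.8%), against 25.5% of the dendritic-like cells without Xcr1. Neutrophil-like cells had 8.89 and 8.02 CPM in the injected libraries, against 8.27 and 11.2 CPM in the uninjected libraries, in 1.18% and 1.03% of cells against 0.82% and 1.58%. This level was alike in the 4 libraries, with a log2 change of -0.11 (SE 0.39, adjusted p = 0.952, edgeR). The 143 neutrophil-like cells with Xcr1 had a median of 1297 UMIs and 3 of the neutrophil markers, as did those without it (1268 UMIs, 3 markers). A Cd74 UMI was present in 2.10% of them, against 4.12% of those without Xcr1. Over class and library sums, the genes most like Xcr1 were Sycp2, Mmp8 (a neutrophil collagenase) and Gpr84.

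Zbtb46, the conventional dendritic cell transcription factor, was highest in mature dendritic-like cells and near 0 in cluster 14. Mature dendritic-like cells had 264 and 378 CPM in the injected libraries, against 169 and 166 CPM in the uninjected libraries. Conventional subset 1 had 116 and 63.8 CPM in the injected libraries, against 60.6 and 52.3 CPM in the uninjected libraries. Subset 2 had 50.4 and 68.5 CPM in the injected libraries, against 20.5 and 30.5 CPM in the uninjected libraries. Mature dendritic-like cells did not overlap the subsets, while subsets 1 to 3 overlapped each other. In mature cells, in subsets 1 and 2 and over all dendritic-like cells, both injected libraries were the higher ones. The same held in keratinocyte-like cells, at means of 3.12 CPM in the injected and 2.61 CPM in the uninjected libraries. Of all genes tested, 19.9% in mature cells, 32.3% in subset 2 and 30.5% in keratinocyte-like cells lay higher in both injected libraries. Subset 3 went the other way, with 53.3 and 12.1 CPM in the injected libraries, against 116 and 71.6 CPM in the uninjected libraries, from 10 UMIs in the injected and 22 in the uninjected group, and it was not tested because uninjected library 1 held 3 such cells. Over all dendritic-like cells the values were 106 and 68.0 CPM in the injected libraries, against 47.8 and 60.4 CPM in the uninjected libraries.

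None of these Zbtb46 differences passed the adjusted threshold of edgeR. The log2 change was 0.54 (SE 0.29, adjusted p = 0.843) in dendritic-like cells, and 26.4% of the 9102 genes tested there likewise lay higher in both injected libraries. In subset 2 it was 0.93 (SE 0.37, unadjusted p = 0.037, adjusted p = 0.769), in subset 1, where 25.6% of genes tested lay higher in both injected libraries, it was 0.58 (SE 0.39, adjusted p = 0.742), and in mature dendritic-like cells it was 0.91 (SE 0.46, adjusted p = 0.735). Of the genes tested in subset 2, 6.43% had an unadjusted p under 0.05. After each cell was thinned to 2000 UMIs, 14.6% and 14.1% of dendritic-like cells had a Zbtb46 UMI in the injected libraries, against 9.68% and 10.2% in the uninjected libraries. The mean shares were 14.3% ± 0.40 and 9.94% ± 0.37 (SD, n = 2 each), with an exact two-sided permutation p of 0.33, the smallest that 2 against 2 libraries can give. Thinning was a single random draw, and these SDs do not cover the spread between draws. The 95% Wilson intervals of the libraries overlapped, such as 10.6% to 18.4% in injected library 2 and 5.62% to 16.2% in uninjected library 1. Thinning left out 23 dendritic-like cells of the injected group and 31 of the uninjected group, and without thinning the shares were 34.6% and 30.4% against 19.7% and 30.0%. Among T and NK-like cells, cluster 19, led by Gzmk and Ccl5, had a Zbtb46 UMI in 14.5% of cells, and cluster 17, led by Icos and Il2ra, in 2.73%. Fibroblast-like cells held 31.2% of all Zbtb46 UMIs, at 13.9 and 9.41 CPM in the injected libraries and 12.4 and 13.8 CPM in the uninjected libraries.

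Ccr7, the receptor that guides maturing dendritic cells to lymph nodes, was also highest in mature dendritic-like cells. Its level there was 234 and 324 CPM in the injected libraries, against 507 and 249 CPM in the uninjected libraries. The groups overlapped, and uninjected library 1, with 19 such cells, was the high one (log2 change -0.39, SE 0.49, adjusted p = 0.986, edgeR). Conventional subsets 2 and 1 followed and overlapped each other. Subset 2 had 118 and 99.6 CPM in the injected libraries, against 98.3 and 156 CPM in the uninjected libraries, and subset 1 had 96.5 and 104 CPM in the injected libraries, against 83.4 and 101 CPM in the uninjected libraries. Langerhans-like cells had 4 and 0 Ccr7 UMIs in the injected libraries, against 2 and 10 in the uninjected libraries. Over all dendritic-like cells the level was 120 and 95.1 CPM in the injected libraries, against 107 and 140 CPM in the uninjected libraries, with a log2 change of -0.34 (SE 0.24, adjusted p = 0.862, edgeR). T and NK-like cells came next, at 30.6 and 19.8 CPM in the injected libraries and 19.9 and 27.8 CPM in the uninjected libraries. There the pattern was the reverse of that of Zbtb46, with a Ccr7 UMI in 13.1% of cluster 17 and 4.48% of cluster 19. Macrophage-like cells had 0 Ccr7 UMIs in all 4 libraries.

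Fscn1, the actin-bundling protein fascin, was shared by mature dendritic-like and structural cells. Mature dendritic-like cells had 680 and 551 CPM in the injected libraries, against 389 and 444 CPM in the uninjected libraries. The groups did not overlap there, as was the case, with the injected libraries higher, for 19.9% of the 3420 genes tested, and the log2 change was 0.55 (SE 0.41, adjusted p = 0.931, edgeR). A UMI was found in 71.7% and 73.3% of these cells in the injected libraries, against 47.4% and 77.7% in the uninjected libraries. Every other class was lower and did not overlap them. Skeletal muscle-like, keratinocyte-like and endothelial-like cells overlapped each other at means of 60.4, 43.7 and 41.6 CPM. Endothelial-like cells, which were not tested, had 72.21 and 50.45 CPM in the injected libraries, against 19.18 and 24.75 CPM in the uninjected libraries. In keratinocyte-like cells the values were 51.9 and 47.4 CPM in the injected libraries, against 29.2 and 46.2 CPM in the uninjected libraries. Both injected libraries were higher, as for 30.5% of the genes tested in that class (log2 change 0.26, SE 0.20, adjusted p = 0.831, edgeR). Among keratinocyte-like clusters, Fscn1 was detected in 56.2% of the cells of cluster 1, which had Krt5 and Krt14 among its leading genes, and in 7.85% of cluster 9, led by Krt15. These clusters differed in depth, with medians of 22430 and 6159.5 UMIs per cell, and their levels over all libraries were 63.1 and 15.6 CPM. Conventional subset 2 had next to none, at a mean of 1.64 CPM.

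**Figure D4:**
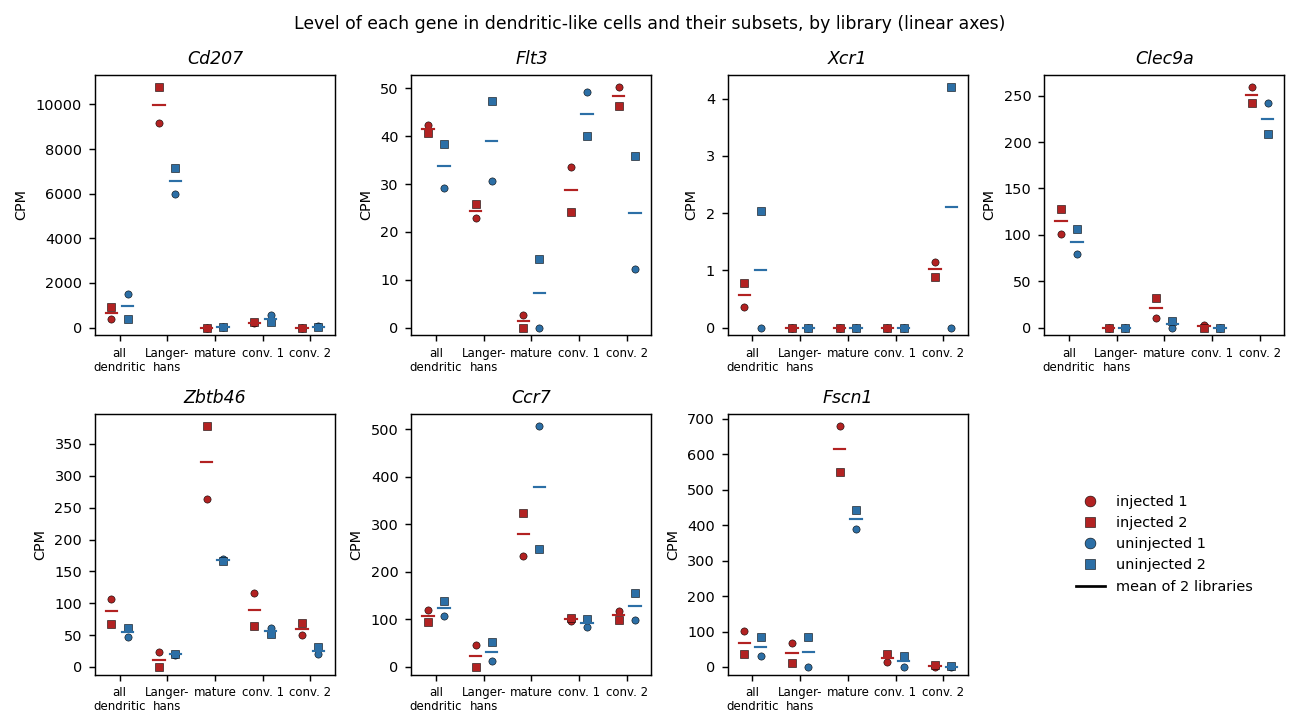
CPM of each gene in all dendritic-like cells, Langerhans-like cells, mature dendritic-like cells and conventional subsets 1 and 2. Points are libraries, red for injected (left) and blue for uninjected (right), and bars are means of 2 libraries. Zbtb46 lay higher in both injected libraries in every column shown but the Langerhans-like one (in subset 3, not shown, it lay lower in both), and Cd207 did so in Langerhans-like cells.

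Over all dendritic-like cells, Zbtb46, Ccr7 and Fscn1 were often detected together. Among the 189 dendritic-like cells with Fscn1, 69.8% had Ccr7 and 57.1% had Zbtb46, against 37.0% and 25.5% of the cells without Fscn1. Of those with Ccr7, 43.4% had Zbtb46, against 20.7% of the cells without Ccr7. Cd207 and Clec9a seldom met, since 4.57% of cells with Cd207 had Clec9a, against 29.9% of cells without it. Clec9a and Flt3 met more often, as 32.7% of cells with Clec9a had Flt3, against 16.5% of cells without it. These shares pool the subsets and the 4 libraries and move with the depth of each cell. In conventional subset 2, Fscn1 was no more frequent with Ccr7 (1.92% of 208 cells) than without it (2.17%), while Zbtb46 was found in 34.1% of cells with Ccr7 and 17.9% of those without. Cells with at least 2 of the 7 genes made up 79.3% and 80.0% of mature dendritic-like cells in the injected libraries, against 47.4% and 75.5% in the uninjected libraries.

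Across all classes, none of the 7 genes passed the threshold of an adjusted p of 0.05 in the main comparisons of injected with uninjected libraries. Some values passed under other settings, which are given in the closing section. The edgeR fits covered 14 sets of cells and tested 51 pairs of a gene and a set. Of these pairs, 0 passed after adjustment over all genes of the fit, and the lowest adjusted p was 0.158. Over all genes 12 fits made no call, 0.0451% passed in fibroblast-like cells and 0.0115% in macrophage-like cells. An unadjusted p under 0.05 was found for 3 of the 51 pairs, beside 6.74% of all genes over the 14 fits together. In dendritic-like cells 6 of the 7 genes were tested, Xcr1 being too low, and 0 were called, beside 0 of 9102 genes in all (0%). In dendritic-like cells 519 genes (5.7%) had an unadjusted p under 0.05, and DESeq2 called 22. Flt3 and Zbtb46 were the 2 of 6 that lay higher in both injected libraries, and none lay lower in both, beside 26.4% and 13% of all genes tested. The median log2 change was 0.11 for the 6 genes and -0.002 for all genes tested. The interaction of class and group between dendritic-like and macrophage-like cells passed for none of Flt3, Clec9a, Zbtb46 and Fscn1 (Ccr7, with 0 UMIs in macrophage-like cells, could not be tested), and for Cd207 it was 4.07 (SE 1.03, adjusted p = 0.302, edgeR). It moved with single libraries, to -0.78 without uninjected library 2, which held the pair of macrophage-like cells above, and to 5.25, 7.13 and 2.62 without uninjected library 1, injected library 1 and injected library 2, where the adjusted p was at most 0.018 (edgeR). Among all genes in that fit, 0.05% passed.

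**Figure D5:**
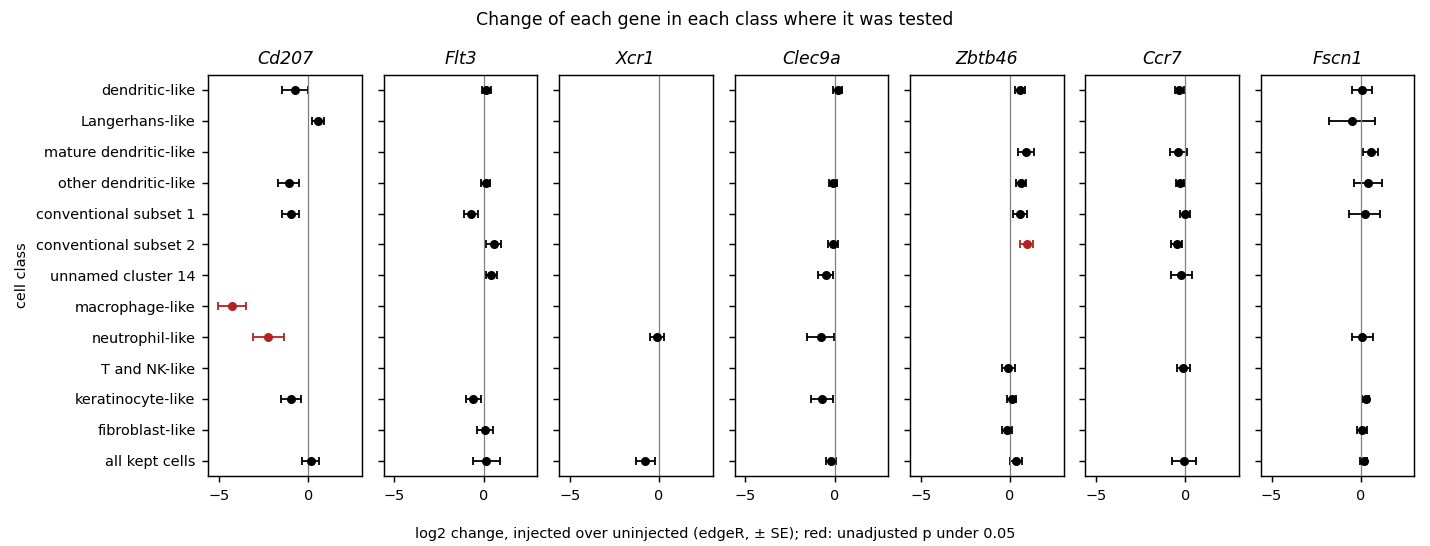
Log2 change of injected over uninjected libraries, with its standard error (edgeR), of each gene (columns) in each class where it was tested (rows). Red points had an unadjusted p under 0.05, and none passed after adjustment. Cd207 in macrophage-like cells (-4.28) rests on 2 cells.

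The number of dendritic-like cells was also compared. They made up 3.63% and 5.00% of kept cells in the injected libraries, against 1.56% and 5.32% in the uninjected libraries, with a log2 change of 0.33 (SE 0.79, adjusted p = 0.990, edgeR). Langerhans-like cells were 0.13% and 0.36% of kept cells in the injected libraries, against 0.42% and 0.29% in the uninjected libraries (log2 change -0.54, SE 0.89, adjusted p = 0.921, edgeR). For mature dendritic-like cells the shares were 0.54% and 0.25% in the injected libraries, against 0.21% and 1.08% in the uninjected libraries (log2 change -0.70, SE 0.86, adjusted p = 0.921, edgeR). The groups overlapped in each of these 3 comparisons. They did not overlap for conventional subset 1, at 1.70% and 2.19% of kept cells in the injected libraries, against 0.54% and 1.65% in the uninjected libraries. The exact two-sided permutation p was 0.33, the smallest that 2 against 2 libraries can give. Conventional subsets 2 and 3 overlapped between the groups.

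Genes that accompany the 7 in dendritic cells were read from lists of the type 1, type 2, Langerhans, maturation and plasmacytoid programmes. In dendritic-like cells 0 genes of any list passed after adjustment. Of the maturation list, 17 of 19 genes were tested and 12 had a positive log2 change, with a median of 0.44 beside -0.002 for all genes tested. Its median was positive outside these cells too, at 0.73 in neutrophil-like, 0.66 in macrophage-like and 0.39 in fibroblast-like cells, and in conventional subset 2 it was flat, with 7 of 14 positive and a median of -0.005. Cd80, a ligand that costimulates T cells, was at 98.6 and 105 CPM in the injected libraries, against 26.5 and 47.3 CPM in the uninjected libraries (log2 change 1.29, SE 0.28, unadjusted p = 0.0032, adjusted p = 0.709, edgeR). Ccl17, a chemokine for T cells, pointed the other way, at 31.8 and 44.8 CPM in the injected libraries and 391 and 50.7 CPM in the uninjected libraries, where uninjected library 1 alone was high. Il4i1 and Cd40, also of that list, had log2 changes of 1.34 and 0.57. Of the type 2 list, 7 of the 8 genes in the matrices were tested, with a median log2 change of 0.25. Clec10a, a lectin of type 2 cells, was at 365 and 348 CPM in the injected libraries, against 90.2 and 167 CPM in the uninjected libraries (log2 change 1.33, SE 0.30, unadjusted p = 0.0039, adjusted p = 0.735, edgeR). The groups did not overlap for Cd80 and Clec10a, and neither passed the adjusted threshold. Clec10a was a leading gene of conventional subset 1. That subset made up 46.9% and 43.8% of dendritic-like cells in the injected libraries, against 34.5% and 31.0% in the uninjected libraries. The log2 change of Clec10a was 1.01 (SE 0.40) within subset 1 and 1.59 (SE 0.66) within subset 2. The part of the mix of subsets in its pooled level was not tested. The other type 2 genes with the smallest p were Irf4, Notch2 and Cd1d1, with log2 changes of 0.56, 0.25 and 0.29. Of the type 1 list 8 genes were tested, with a median of -0.18, and Itgae, Cadm1, Wdfy4 and Id2 had log2 changes of -0.54, -0.56, 0.34 and -0.26. Of the Langerhans list 10 genes were tested, with a median of -0.23. There Mfge8, Csf1r, Cd24 and Ltc4s had log2 changes of -1.45, -1.09, -0.90 and -1.02, and each was highest in uninjected library 1. Conventional subset 1 was clustered apart from the Langerhans-like cells, but 16.6% of its cells had a Cd207 UMI and Mfge8 was among its top 10 genes. In this subset Mfge8 had 526 and 353 CPM in the injected libraries, against 1732 and 865 CPM in the uninjected libraries (log2 change -1.75, SE 0.47, adjusted p = 0.537, edgeR). Csf1r had 30.2 and 37.7 CPM there in the injected libraries, against 72.0 and 71.9 CPM in the uninjected libraries. The part of Langerhans-type cells in these values was not tested. Of the plasmacytoid list 3 genes were tested, Tcf4, Runx2 and Ccr9, with a median of 0.13.

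Within subsets the same lists gave 0 calls too. In Langerhans-like cells 6 of 9 maturation genes tested had a positive log2 change (median 0.13), among them Relb (0.67) and Marcksl1 (0.63). In Langerhans-like cells Ccl22, a chemokine of mature dendritic cells, had 183 and 92.6 CPM in the injected libraries, against 496 and 504 CPM in the uninjected libraries. Both injected libraries lay below both uninjected libraries, as for 14.4% of genes tested (log2 change -1.99, SE 0.45, unadjusted p = 0.0015, adjusted p = 0.599, edgeR). In conventional subset 1 the same gene pointed the other way, with 774 and 415 CPM in the injected libraries, against 243 and 163 CPM in the uninjected libraries (log2 change 1.41, SE 0.42, adjusted p = 0.548, edgeR). The difference between these changes was not tested. Subset 1 also had the smallest p of the lists, for Cd80, at 102 and 111 CPM in the injected libraries, against 26.5 and 25.3 CPM in the uninjected libraries (log2 change 1.96, SE 0.33, adjusted p = 0.336, edgeR). Cd40 and Cd274, which encodes the checkpoint ligand PD-L1, had log2 changes of 1.10 and 1.19 in that subset. In mature dendritic-like cells Socs2, a cytokine-signalling inhibitor, was at 239 and 238 CPM in the injected libraries, against 101 and 101 CPM in the uninjected libraries (log2 change 1.23, SE 0.46, adjusted p = 0.594, edgeR).

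The ligands of Xcr1, Flt3 and Ccr7, and other growth factors of these cells, were counted mostly outside the dendritic-like cells, Tgfb1 being widespread. Xcl1, the ligand of Xcr1, was found in T and NK-like cells at 157 and 278 CPM in the injected libraries, against 332 and 230 CPM in the uninjected libraries. Cluster 14 also had Xcl1, at 110 and 118 CPM in the injected libraries, against 252 and 240 CPM in the uninjected libraries, with both injected libraries lower, as were 12.7% of genes tested in that cluster. Flt3lg, the ligand of Flt3, was in fibroblast-like cells at 4.97 and 8.77 CPM in the injected libraries and 10.0 and 10.4 CPM in the uninjected libraries. Ccl21, a ligand of Ccr7, had 757 UMIs, of which 495 were in endothelial-like cells of uninjected library 1 alone. Ccl19, the other ligand of Ccr7, had 222 UMIs in fibroblast-like cells, at 0.30 and 5.61 CPM in the injected libraries, against 21.0 and 0.52 CPM in the uninjected libraries. For both Ccr7 ligands uninjected library 1 was thus the high one. Il34, a Langerhans cell growth factor, was highest in mural-like cells, and in keratinocyte-like cells was at 3.57 and 3.79 CPM in the injected libraries and 2.39 and 3.75 CPM in the uninjected libraries. Csf2, a growth factor of dendritic cells, was highest in endothelial-like cells, at 11.3 and 12.6 CPM in the injected libraries and 45.6 and 30.5 CPM in the uninjected libraries. Tgfb1, needed for Langerhans cells in mouse, was at 332 and 319 CPM in dendritic-like cells of the injected libraries, against 210 and 320 CPM in the uninjected libraries.

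Across 32 sums of 8 classes in 4 libraries, the genes whose levels ran most like those of the 7 were listed by Pearson correlation of log2(CPM + 1), as a description only, since sums of 1 library share its depth. Flt3 was followed most closely by Myo18b (r = 0.95), Tbc1d8 and Ap3b2, and Ccr7 by Rgs9 (r = 0.96), Klrb1b and Stk4. Fscn1 ran with Cacnb3 (r = 0.91), which also led the mature dendritic-like cells, and with Tmem63c and Cyp27b1. For Zbtb46 the nearest were Arhgap31 (r = 0.90), Cenpa and Mmd. Clec9a had AC239701.4 (r = 0.88), Ccl17 and Cfp, and Cd207 had Ncoa7 (r = 0.90), LOC689065 and AABR07072096.1. Among the 7 themselves, the highest correlations were 0.65 between Cd207 and Clec9a and 0.61 between Flt3 and Clec9a.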

How the data were processed

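The deposited matrices hold whole-number UMI counts per gene and barcode, empty droplets included, made by the authors with Cell Ranger. The submitters' processing notes name version 5.0.1, whereas version 7.2.0 stands in the matrices, per the file headers. The sources used here name no genome build or annotation. The 7 genes and all lists were chosen with earlier results of these data known.

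Cells were called against the empty-droplet profile (at least 500 UMIs, false discovery rate 0.01), and kept with at least 250 genes and at most 20% mitochondrial UMIs. Scrublet's highest-scoring cells were removed as doublets, at 0.8% per 1000 cells called. Scanpy 1.11.5 clustered the cells on 2000 variable genes and 30 components without the 7 genes. A cluster took the name of its highest marker list where at least 3 markers were detected. It stayed unnamed if its top 10 genes held more markers of another list. UMIs were summed per class and library and tested with edgeR 4.0.16 (TMM, filterByExpr, quasi-likelihood, Benjamini-Hochberg over all genes of the fit), in classes with at least 50 and subsets with at least 20 cells per library. Langerhans-like and mature dendritic-like cells held fewer, and were tested with a minimum of 10, added after the data were seen. DESeq2 1.42.0 was an alternative. The fits were tested on simulated data. The free-RNA bound scales the empty-droplet profile until it explains every UMI of any 1 of its 200 most abundant genes in the class. Floors are 3 counts and cover counting error only.

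Named were the 7 genes, all ligands, the 3 genes most like each of the 7, and of each list the genes past the threshold or otherwise up to 4 with the smallest p; the text prints a part of the last.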

Additional observations from a re-analysis of the deposited data

How the results depend on the processing

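Of 499 alternative values for the 51 tested pairs of a gene and a set of cells, 439 kept their direction and side of the threshold, 55 changed sign and 5 newly passed; 21 pairs never changed sign. All values are log2 changes unless named otherwise, and where a value changed, the cause was not tested. With the replicate number as a block, Cd207 and Ccr7 in all kept cells were -0.048 and 0.26, Fscn1 in dendritic-like cells -0.003 and Flt3 in fibroblast-like cells -0.017. Same-numbered libraries did not deviate together (r = -0.14 in dendritic-like cells). With 2 libraries per group this is a single contrast, which cannot show whether they share an animal or a batch. A block crossing the numbers, added after the data were seen, called 21 genes in dendritic-like cells. The block called 1 pair outside the dendritic-like cells, Cd207 in macrophage-like cells (-3.99, adjusted p = 0.017, edgeR), and so did no filter on low counts (1 pair, -4.22). No filter also gave 0.037 for Ccr7 in conventional subset 1. The per-cell gate, a coarse class of 6607 cells that held 1224 of the 1270, gave in dendritic-like cells -0.085 for Flt3 and -0.16 for Clec9a, in other dendritic-like cells 0.091 for Clec9a and -0.83 for Fscn1, in Langerhans-like cells -0.067 for Cd207 and 0.47 for Fscn1, in mature dendritic-like cells -0.19 for Fscn1, and for cell numbers 0.39 (Langerhans-like) and 0.70 (mature). With doublets kept, Fscn1 was -0.04 in dendritic-like cells and -0.11 in subset 1, Ccr7 0.15 in subset 1 and Cd207 -0.087 in Langerhans-like cells. Genes called in dendritic-like cells numbered 22 with DESeq2 and 267 with no filter, against 0.

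Leaving out each library in turn gave these ranges. In all kept cells Cd207 ran from -0.79 to 0.70, Flt3 from -0.55 to 1.68, Clec9a from -0.38 to 0.075, Ccr7 from -0.77 to 1.34 and Fscn1 from -0.015 to 0.34. In dendritic-like cells Cd207 ran from -1.53 to 0.70, Clec9a from -0.019 to 0.36 and Fscn1 from -0.79 to 0.93, and in other dendritic-like cells Cd207 from -1.82 to 0.14, Clec9a from -0.22 to 0.062 and Fscn1 from -0.30 to 7.41. In conventional subset 1 Ccr7 ran from -0.091 to 0.074 and Fscn1 from -0.60 to 7.35, in subset 2 Clec9a from -0.28 to 0.13, in Langerhans-like cells Fscn1 from -1.98 to 0.60 and in mature dendritic-like cells Ccr7 from -0.90 to 0.11. Elsewhere the ranges were -0.26 to 0.16 for Zbtb46 and -0.52 to 0.14 for Ccr7 in T and NK-like cells, -0.49 to 0.46 for Flt3, -0.49 to 0.12 for Zbtb46 and -0.20 to 0.45 for Fscn1 in fibroblast-like cells, -0.011 to 0.23 for Zbtb46 in keratinocyte-like cells, -0.42 to 0.34 for Xcr1, -1.51 to 1.0 for Clec9a and -0.40 to 0.91 for Fscn1 in neutrophil-like cells, and -0.91 to 0.13 for Clec9a and -0.072 to 0.11 for Ccr7 in cluster 14. Cell numbers ran from -0.30 to 1.46 (dendritic-like), -1.41 to 0.029 (Langerhans-like), -1.44 to 0.92 (mature) and -0.087 to 1.96 (other). The difference between dendritic-like and macrophage-like effects ran from -0.78 to 7.13 for Cd207 and from -0.32 to 3.76 for Clec9a, and the difference in thinned shares from -17.87 to 0.16 percentage points for Cd207 and from -3.16 to 2.20 for Fscn1. Pairs called numbered 0 to 2 in the dendritic subsets and 0 to 1 in other classes. Without uninjected library 2, Cd207 passed in subset 1 (-1.53, adjusted p = 0.018) and other dendritic-like cells (-1.82, adjusted p = 0.0018), and Clec9a in neutrophil-like cells (-1.51, adjusted p = 0.017; edgeR). Genes called in dendritic-like cells numbered 0 to 235 and were highest without that library, which leaves uninjected library 1 alone in its group and assumes that it varies as the injected pair does.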
